A study of Mus musculus with 5 samples.

Results

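The 6 genes described here encode inhibitors of the cyclin-dependent kinases that drive cells from G1 into S phase. They are Cdkn2a, Cdkn2b, Cdkn2c and Cdkn2d of the Ink4 and Arf group and Cdkn1b and Cdkn1c of the Kip group, 6 of 23779 genes measured on the arrays. They were chosen by name, with the values of the tumour-derived arrays against the control already known, so their levels in that contrast are a description with no test. Each array probe was assigned to a member through its transcript accession, which gave 8 probes, 2 for Cdkn2a, 2 for Cdkn2b and 1 for each of the others. All 8 probes were well above background on all 5 arrays, so each of the 6 genes passed the filter on dim signals.

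RNA was measured on 5 one-colour microarrays, 1 per sample, from mouse gastric organoids, called Ga organoids in the labels, which are cultures grown from stomach epithelium. The samples derived from tumours were organoids recovered from growths under the skin of mice. Both shCdh1 samples combined loss of Trp53 with 1 of 2 different hairpins against Cdh1, the Apc sample combined Trp53 loss with the Apc mutant allele named in the labels, and the Pik3ca sample had Trp53 loss together with a mutant Pik3ca known to be activating. The control came from Trp53flox/flox mice, carried the pLKO.1 vector with the luciferase hairpin shLuc, and was collected before inoculation under the skin. No Trp53 loss is named for it. All 5 samples were stomach cultures labelled female and were propagated in the same serum-free medium, which contained EGF, R-spondin1, Noggin, Jagged-1, Y27632 and the GSK3 inhibitor CHIR-99021. The shCdh1 group had n = 2 and the Apc, Pik3ca and control groups n = 1 each. Whether each tumour line was 1 clone, and which animals the lines came from, is not given in the sources used here. Nothing says that the hairpin pair came from separate cultures or animals, so the spread between these 2 may be technical. The p-values measure only the spread between these samples. Against the control that is the spread among all tumour-derived samples, which includes their genotype differences. Between tumour genotypes it is the spread within the hairpin pair and that between Apc and Pik3ca. Every contrast with the control joins Trp53 loss, the second lesion and growth as a tumour, which cannot be told apart here.

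The Ink4 proteins p16, p15, p18 and p19Ink4d bind Cdk4 and Cdk6 and block their pairing with D-type cyclins, which keeps the retinoblastoma protein active and E2F factors silent. The Kip proteins p27 and p57 act on cyclin E and cyclin A complexes with Cdk2. Cdkn2a is unusual in that a second start and a second reading frame give p19Arf, which binds Mdm2 and so stabilises p53, and in mouse cells p53 is known to restrain Cdkn2a expression in turn.

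Cdkn2a and Cdkn2b are neighbours among the protein-coding genes of chromosome 4 in the RefSeq annotation. Cdkn2c lies elsewhere on chromosome 4, Cdkn2d on chromosome 9, Cdkn1b on chromosome 6 and Cdkn1c on chromosome 7. The promoters of this locus are shown because Cdkn2a has separate starts for its products and because Cdkn2b, next to it, differed far less between tumour-derived samples and control. Each sequence is from RefSeq, build GRCm38.p6, minus strand, 5′ to 3′, and runs from 250 bases before to 50 bases after a transcript start. Capitals mark GGGCGG, the core of the GC box bound by Sp1-type factors, searched on both strands.
Cdkn2a, upstream start (Arf), chr4:89294570-89294869: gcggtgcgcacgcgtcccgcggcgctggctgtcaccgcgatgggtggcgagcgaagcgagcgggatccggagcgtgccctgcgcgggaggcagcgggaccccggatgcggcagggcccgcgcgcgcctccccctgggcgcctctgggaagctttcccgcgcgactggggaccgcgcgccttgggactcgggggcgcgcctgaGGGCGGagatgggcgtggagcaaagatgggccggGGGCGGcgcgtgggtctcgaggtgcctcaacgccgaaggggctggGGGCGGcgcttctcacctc
Cdkn2a, downstream start (p16Ink4a), chr4:89282143-89282442: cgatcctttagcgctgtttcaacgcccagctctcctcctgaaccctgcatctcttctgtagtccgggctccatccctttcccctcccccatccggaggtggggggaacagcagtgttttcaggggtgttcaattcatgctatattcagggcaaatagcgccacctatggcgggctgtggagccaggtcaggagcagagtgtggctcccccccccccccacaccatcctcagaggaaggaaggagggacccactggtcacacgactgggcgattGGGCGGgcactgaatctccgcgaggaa
Cdkn2b, chr4:89310983-89311282: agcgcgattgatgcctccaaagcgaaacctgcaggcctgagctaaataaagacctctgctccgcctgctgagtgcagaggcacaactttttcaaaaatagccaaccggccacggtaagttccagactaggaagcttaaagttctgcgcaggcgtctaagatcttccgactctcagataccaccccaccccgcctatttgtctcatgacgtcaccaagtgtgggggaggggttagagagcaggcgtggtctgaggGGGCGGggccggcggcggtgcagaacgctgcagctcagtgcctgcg

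The upstream Cdkn2a window held 45 CpG dinucleotides and was 77.0% G or C, while the downstream window held 12 CpG and was 60.3% G or C. The Cdkn2b window held 18 CpG and was 57.7% G or C. Over 32851 mouse promoter windows of the same length the medians were 7 CpG and 52.7% G or C. GGGCGG occurred 3 times in the upstream Cdkn2a window, once in the downstream one and once in that of Cdkn2b, and 35.7% of all windows held it. The TATA box letters TATAAA (13.6% of windows), the E2F-type TTCGCGC (1.59%), the AP-1-type TGANTCA (7.81%), the forkhead-type GTAAACA (3.65%) and the E-box CACGTG (7.15%), searched on both strands, were in none of these 3 windows. CCAAT, present in 37.4% of windows, was found in the downstream Cdkn2a window, on the opposite strand and overlapping GGGCGG. These matches describe the letters alone.

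The arrays were of like depth in signal, with 61.8% to 65.3% of 59305 spots well above background. Probes spotted 3 or more times differed between their spots on 1 array by a median SD of 0.04 to 0.05 on the log2 scale, while each member probe was spotted once. Levels below are log2 signal with 0 at the array's 75th percentile. A level belongs to its own probe and is not set against that of another probe. Cdh1 was at 0.07 in hairpin 1, 0.26 in hairpin 2, 4.48 in Apc and 4.58 in Pik3ca, against 4.39 in the control. Trp53 was between −5.86 and −4.86 on the tumour-derived arrays and at 0.85 in the control. The place of its probe relative to the deleted exons was not determined. The Pik3ca array went against its label of female. Xist was not well above background there (−8.14), and 4 Y-linked genes (Uty, Kdm5d, Ddx3y, Eif2s3y) exceeded background there and on none of the other arrays. Member differences without that array are therefore given as well. The shCdh1 and control arrays lay on slide 1 and the Apc and Pik3ca arrays on slide 2.

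Epithelial markers were well above background for 6 of 6 genes on each array, and their linear signals relative to the 75th percentile summed to between 511 and 725 on the tumour-derived arrays and to 660 in the control. Gastric markers were detected for 12 or 13 of 13 genes. Their sums were 145, 54.3, 105 and 58.1 in hairpin 1, hairpin 2, Apc and Pik3ca, against 218 in the control. Most of each gastric sum came from Tff1, at 6.96, 5.13, 6.31 and 5.58 in that order, against 7.51 in the control. Cldn18, Tff2, Gkn2 and Pgc were also below the control on all 4 tumour-derived arrays. Sox2 and Atp4a were above it on all 4, and the rest of the list was mixed. Leukocyte markers summed to 22.2, 34.0, 26.6 and 24.1 in the same order, against 17.7 in the control, with 6 to 8 of 10 detected on tumour-derived arrays and 7 in the control. The macrophage genes Adgre1 and Lyz2 were not well above background on any array. Ptprc was well above background on 3 tumour-derived arrays and not in the control. Cd74 and Cd68 were above the control on all 4 tumour-derived arrays, by 4.91-fold and 1.98-fold on average. Cd3e (0.03) and Csf1r (−0.05) had mean log2 differences near 0. None of these 5 passed in limma. Fibroblast markers summed to 10.5 to 15.1 on the tumour-derived arrays, where 3 to 6 of 10 were detected, and to 11.5 in the control, where 3 were, and Col3a1, Pdgfrb, Lum and Postn were detected on no array. Nearly all of each fibroblast sum came from Acta2, at 3.91, 3.58, 3.36 and 3.87 in the same order, against 3.51 in the control. The sums therefore say little about the other fibroblast markers. Endothelial markers summed to 0.160 to 0.236 on the tumour-derived arrays and to 0.299 in the control, with 3 or 4 of 8 detected and Cldn5 and Tie1 on no array. Most of the control's sum came from Emcn, at −2.54 there and between −8.30 and −7.99 on the tumour-derived arrays, none of them well above background. Emcn was among the genes that passed in limma on the lower side, with its tumour-derived mean at least 20.8-fold below the control. Kdr went the other way, well above background on 3 tumour-derived arrays and not in the control. The part of other cells in the member levels was not tested, and in bulk RNA more cells of a kind and more RNA per cell cannot be told apart.

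Cdkn2a, which encodes p16Ink4a and p19Arf, stood furthest from the control of all members. Its brighter probe, A_55_P2008437, was at 6.01 in shCdh1 hairpin 1, 5.98 in hairpin 2, 5.75 in Apc and 5.74 in Pik3ca, against 2.07 in the control. The 4 tumour-derived arrays lay within 0.27 of each other and the nearest of them was 3.67 above the control, 13.8 times that range. The mean difference was 3.80 on the log2 scale, or 13.9-fold, with single arrays between 12.7-fold and 15.3-fold. In order of level, the hairpins differed from each other by 0.03 and Apc from Pik3ca by 0.01, and the control alone stood apart.

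The dimmer Cdkn2a probe, A_51_P144813, gave the same order of sides. It read 2.12 and 2.17 in the hairpins, 1.96 in Apc and 1.79 in Pik3ca, and −2.20 in the control, a mean difference of 4.21 (18.6-fold). Its tumour-derived levels spanned 0.37, and the distance of the nearest from the control was 10.7 times that span. Both probes carry 1 transcript accession of the 2 curated for the gene. Where on the transcript each lies was not determined here, so p16Ink4a and p19Arf cannot be told apart. Across the whole table, 103 of 17583 genes, Cdkn2a included, had a mean at least as far above the control. Genes as far below the control are not in that count.

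**Figure D1:**
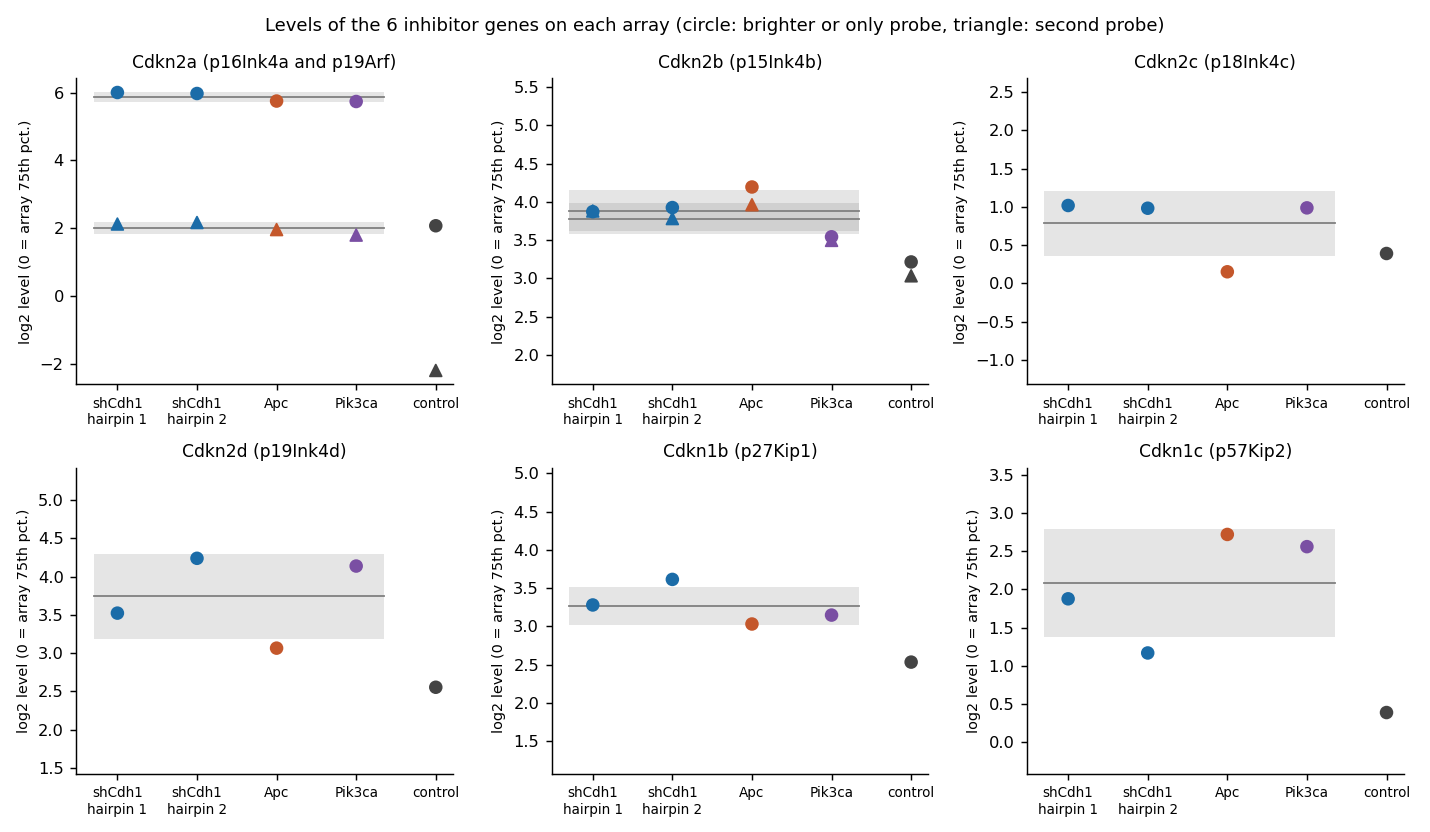
Log2 level of each member (y axis, 0 at the array's 75th percentile) on the shCdh1, Apc, Pik3ca and control arrays (x axis), with 1 point per array and probe; the grey line and band are the mean and SD of the 4 tumour-derived arrays. Both Cdkn2a probes put the 4 tumour-derived arrays together and far above the control (5.74 to 6.01 against 2.07 for the brighter probe), while Apc lies below the control for Cdkn2c only.

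Cdkn2b encodes p15Ink4b, an inhibitor of Cdk4 and Cdk6 that transforming growth factor beta is known to induce. Its brighter probe was at 3.87 and 3.93 in the shCdh1 hairpins, 4.20 in Apc and 3.54 in Pik3ca, against 3.22 in the control. Its second probe was at 3.88, 3.78, 3.96 and 3.50 in the same order, against 3.03. All tumour-derived arrays were above the control on both probes, but by 0.33 at the least on the brighter one, which is less than their own range of 0.65. The mean differences were 0.67 (1.59-fold) and 0.75 (1.68-fold), so the probes of this gene differed by 0.08. Apc was the highest array and Pik3ca the lowest of the tumour-derived ones on both probes, and the hairpins differed by only 0.05 and 0.10.

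Cdkn2c encodes p18Ink4c and was the member nearest to its control level. Its levels were 1.02 and 0.98 in the hairpins, 0.15 in Apc and 0.99 in Pik3ca, against 0.39 in the control. Hairpin 1, hairpin 2 and Pik3ca were 1.54-fold, 1.51-fold and 1.51-fold above the control, and Apc was 1.18-fold below it, so the groups overlapped. The mean difference of 0.39 was smaller than the SD of 0.42 between the tumour-derived arrays (n = 4).

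Cdkn2d encodes p19Ink4d, the fourth Ink4 protein. It was at 3.52 and 4.24 in the hairpins, 3.07 in Apc and 4.14 in Pik3ca, against 2.55 in the control. All 4 arrays were above the control, by 1.43-fold in Apc and 3.22-fold in hairpin 2, with a mean difference of 1.19 (2.28-fold). The hairpins differed by 0.72 for this gene, more than the 0.51 between Apc and the control, and hairpin 2 and Pik3ca formed the high end.

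Cdkn1b encodes p27Kip1, which is held in check largely by protein degradation. Its levels were 3.28 and 3.61 in the hairpins, 3.03 in Apc and 3.15 in Pik3ca, against 2.53 in the control. The 4 arrays were above the control by 1.41-fold to 2.12-fold, with a mean difference of 0.74 (1.66-fold) and an SD of 0.25. The nearest, Apc, was 0.50 above the control, within the 0.58 that the tumour-derived arrays spanned.

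Cdkn1c encodes p57Kip2 and is an imprinted gene expressed mainly from the maternal copy. It was at 1.88 and 1.17 in the hairpins, 2.72 in Apc and 2.56 in Pik3ca, against 0.39 in the control. The mean difference was 1.69 (3.23-fold), the second largest among the members, with Apc at 5.02-fold, Pik3ca at 4.50-fold, hairpin 1 at 2.80-fold and hairpin 2 at 1.72-fold. The order was thus Apc and Pik3ca, 0.16 apart, then hairpin 1 and hairpin 2, 0.71 apart, then the control.

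**Figure D2:**
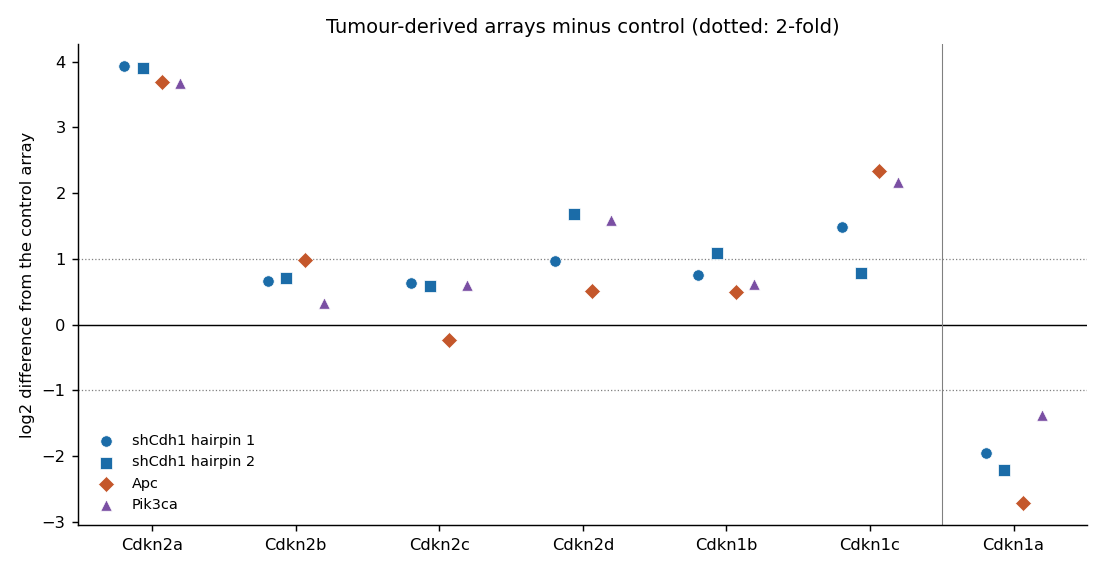
Log2 difference of each tumour-derived array from the control array (y axis) for the 6 members and Cdkn1a (x axis), 1 point per array, with dotted lines at 2-fold. Cdkn2a lies between 3.67 and 3.94 on the 4 arrays, Cdkn2c in Apc is the single member value below 0, and Cdkn1a is below 0 on all 4.

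Counted together, 5 of 6 members were above the control on all 4 tumour-derived arrays, as were 30.2% of all genes tested (24.4% were below it on all 4), and 3 of 6 (Cdkn2a, Cdkn2d and Cdkn1c) had a mean at least 2-fold higher, as did 9.88% of all genes (6.98% were as far lower, and no member was). The median member difference was 0.96, beside 0.06 over the 17583 genes tested. In limma 0.119% of all genes passed, 0.0227% on the higher side and 0.0967% on the lower side. Since the members were chosen with this contrast known, nothing is read from these shares. Without the Pik3ca array the mean differences were 3.84 for Cdkn2a, 0.78 for Cdkn2b, 0.33 for Cdkn2c, 1.06 for Cdkn2d, 0.78 for Cdkn1b and 1.53 for Cdkn1c. Blocking on slide, so that both shCdh1 arrays alone are set against the control, gave 3.92, 0.68, 0.61, 1.33, 0.91 and 1.13 in that order.

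Cdkn1a, the remaining Cip/Kip gene, encodes p21 and is a known target of p53. Its brighter probe was lower in the tumour-derived samples, at 2.08 and 1.82 in the hairpins, 1.31 in Apc and 2.65 in Pik3ca, against 4.03 in the control (difference −2.07 ± 0.52, limma adjusted p = 0.268). Its second probe, assigned to another transcript of the gene, was well above background in the control alone, which put the tumour-derived mean at least 150-fold lower. That bound sets the control against, on each array, the higher of the probe's own level and the lowest level among probes well above background. Cdkn1a thus lay below the control on all 4 arrays while all 6 members had a mean above it.

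The members were next compared between tumour genotypes, a contrast that leaves the control out. None of the 6 passed in limma, and none of 17405 genes did (0% called, 4.53% at an unadjusted p under 0.05). Cdh1, the target of the hairpins, did not pass either, at −4.37 ± 0.21 (SE, limma adjusted p = 0.431). A lack of calls in this contrast therefore does not show that a gene was unchanged. Among the members Cdkn1c showed the largest gap, with means of 1.52 ± 0.50 in the shCdh1 tumours and 2.64 ± 0.11 in the Apc and Pik3ca tumours (SD, n = 2 each). That difference was −1.12 ± 0.32 (SE), 2.17-fold lower with the Cdh1 hairpins, with a 95% interval from −2.02 to −0.21, an unadjusted limma p of 0.0266 and an adjusted p of 0.99. Both hairpins were below both other arrays. Cdkn1c was the 1 member with a gap of at least 2-fold, which 8.88% of all genes had.

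Cdkn2a averaged 5.99 ± 0.02 in the shCdh1 tumours and 5.75 ± 0.01 in the Apc and Pik3ca tumours (SD, n = 2 each), a difference of 0.24 ± 0.19 (SE) whose interval ran from −0.30 to 0.79. A difference of either sign under 2-fold is therefore what these arrays allow for Cdkn2a between the genotypes. The intervals were −0.29 to 1.00 for Cdkn1b, −0.56 to 1.42 for Cdkn2c, −0.82 to 0.87 for Cdkn2b and −1.11 to 1.67 for Cdkn2d, with adjusted p between 0.99 and 0.995. In 3 members (Cdkn2a, Cdkn1b and Cdkn1c) the groups did not overlap, and they did not overlap in 33.2% of all genes. Slide and genotype cannot be told apart in this contrast, since each side lay on its own slide.

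**Figure D3:**
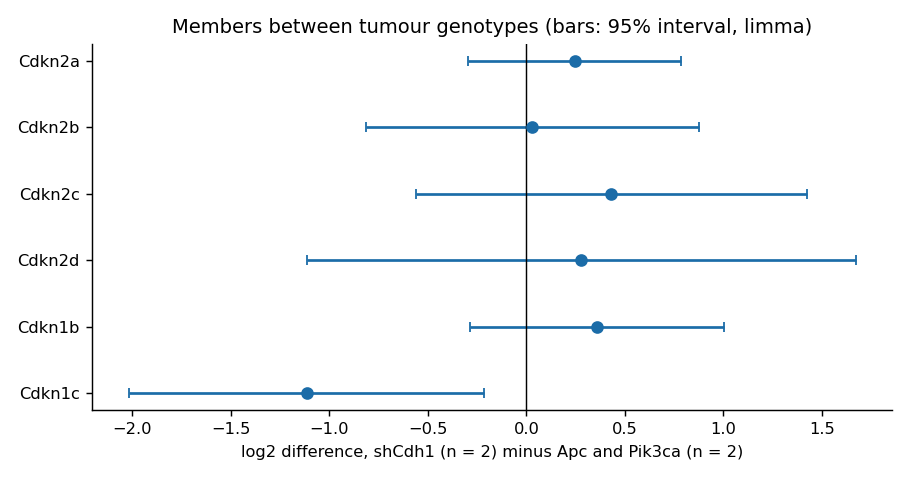
Log2 difference of the shCdh1 tumours (n = 2) minus the Apc and Pik3ca tumours (n = 2) on the x axis for each member, with points for the limma estimate and bars for its 95% interval. The interval of Cdkn1c, from −2.02 to −0.21, lies below 0 before adjustment over all genes, and the other 5 include 0.

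The partners and targets of these inhibitors were followed in 12 gene lists, in which 135 genes were tested. None passed on the higher side and 1, Trp53, on the lower side in the contrast of tumour-derived samples with the control. The median difference over the lists was 0.13, beside 0.06 for all genes. For the list counts below, the shares over all genes are these. Of 17583 genes tested against the control, 9747 were higher on average. All 4 tumour-derived arrays were above the control for 30.2% of genes and below it for 24.4%. The mean was at least 2-fold higher for 9.88% and at least 2-fold lower for 6.98%. None of the 135 passed between the tumour genotypes.

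The D-type cyclins and their kinases, the complexes that Ink4 proteins block, had a median of 0.00 over 5 genes. Cyclin D2 (Ccnd2) had the largest difference, with 6.31 and 6.48 in the hairpins, 5.84 in Apc and 5.52 in Pik3ca, against 7.44 in the control (−1.40 ± 0.43, limma adjusted p = 0.308). Cdk6 was at 2.10, 2.32, 2.22 and 2.10, against 2.14 in the control. Among cyclins E and A with Cdk2 and its activators, the Kip targets, 9 genes were tested, with a median of 0.18 and 6 above the control on all 4 arrays. Cyclin A2 (Ccna2) had a difference of 0.81 ± 0.35 and Cdk1 of 0.67 ± 0.24, while cyclin E1 (Ccne1) had −0.58 ± 0.36 (adjusted p of 0.405, 0.355 and 0.545 in limma).

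The pocket proteins had a median of −0.05 over 3 genes, with the retinoblastoma gene Rb1 at −0.26 ± 0.30. E2F factors and their partners had a median of −0.06 over 10 genes, led by E2f3 at 0.74 ± 0.22 and E2f6 at −0.56 ± 0.24. The replication genes known to be driven by E2F had a median of 0.34, with 14 of 15 higher on average and 8 of 15 above the control on all 4 arrays, yet none passed. The proliferation marker Mki67 was at 4.63, 4.76, 4.52 and 4.90 on the tumour-derived arrays, in the order hairpin 1, hairpin 2, Apc and Pik3ca, against 4.23 in the control (0.47 ± 0.24, limma adjusted p = 0.471). The ribonucleotide reductase subunit Rrm1 had 0.53 ± 0.35. In Apc the median of this list was 0.00 and in the other tumour-derived arrays 0.40 to 0.48.

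In the Arf and p53 axis, which takes in Trp53, 3 of 10 genes were at least 2-fold lower and the median was −0.17. Trp53 fell by 6.07 on the log2 scale (SE 0.43, limma adjusted p = 0.0344), a call lost without hairpin 1, hairpin 2 or Pik3ca, with slide as a block, and with dim signals set to a floor. The difference under these settings stayed between −6.19 and −5.93, and with normexp background correction it was −4.16 (adjusted p = 0.0033). Mdm2, the p53 ubiquitin ligase that p19Arf binds and that p53 itself induces, was at 2.83, 2.91, 2.64 and 2.76, against 4.18 in the control (−1.40 ± 0.22, adjusted p = 0.171). Npm1, the nucleolar protein that also binds Arf, was at 6.67, 6.73, 6.57 and 6.90, against 6.58.

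Regulators of the Ink4-Arf locus, among them the Polycomb repressors, had a median of 0.08 over 27 genes with 17 higher and 10 lower. Ets1, a transcription factor known to activate the p16 promoter in human cells, was at −2.19, −1.79, −2.33 and −1.43, against −3.83 in the control (1.89 ± 0.40, limma adjusted p = 0.239). Dmtf1, a Myb-like activator of Arf in the mouse, was at −0.36, −0.37, −0.30 and −0.23, against −1.26 (0.94 ± 0.20, adjusted p = 0.24). Of the Polycomb genes, Phc2 had 0.71 ± 0.24, and the core repressors differed in direction. Suz12 had 0.51 ± 0.27 and was above the control on all 4 arrays, Ring1 had −0.51 ± 0.23 and was below it on all 4, and Bmi1 (−0.11 ± 0.33), Cbx7 (0.02 ± 0.23) and Ezh2 (0.08 ± 0.31) lay within their errors of 0. Of the neighbours of the locus 5 genes were tested, 4 higher and 1 lower on average, with a median of 0.47, 3 above the control on all 4 arrays, and none passed. That median is the value of Ifne, which was well above background on 1 array only. Ifne was above the control in Pik3ca alone (−5.06 against −7.83). Ifnb1 was well above background on 2 arrays. Klhl9 had the largest difference among the neighbours detected on each array, at 0.64 ± 0.27, and Mtap, the lower 1, was at 1.67, 0.98, 2.03 and 1.41, against 1.73 in the control. Dmrta1, the nearest protein-coding gene beyond Cdkn2b, was not well above background on any array.

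**Figure D4:**
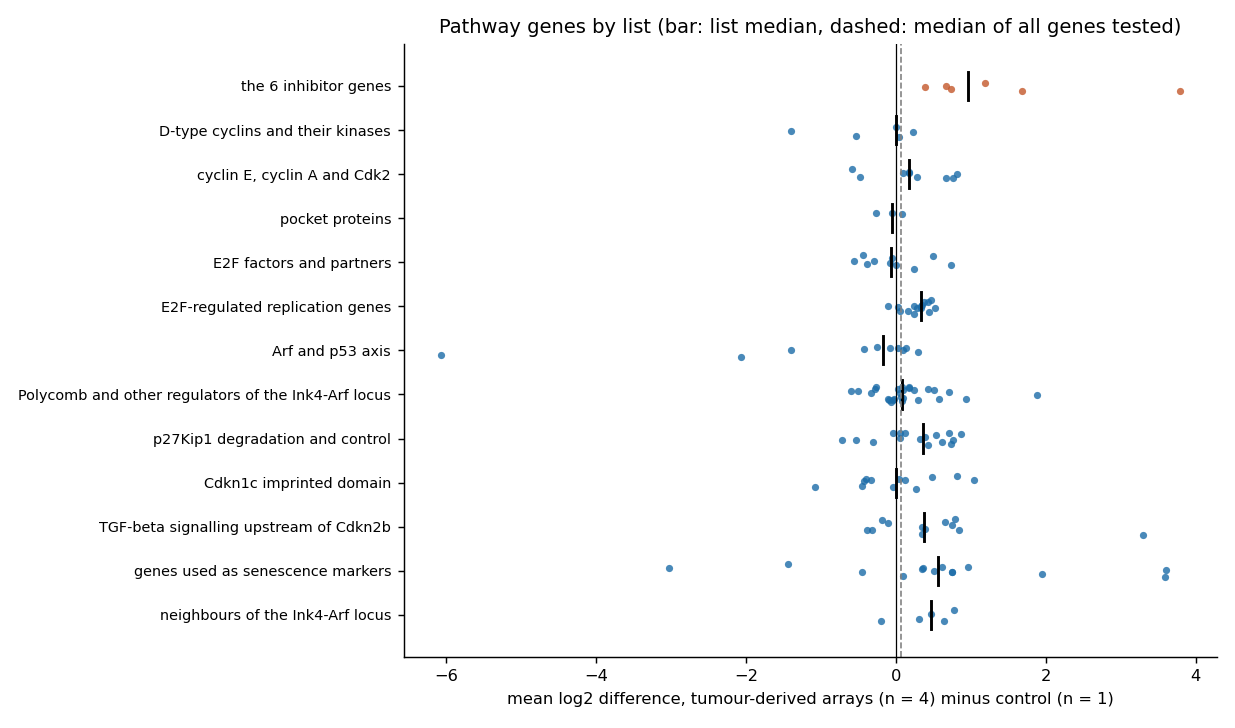
Mean log2 difference of the tumour-derived arrays (n = 4) minus the control (x axis) for each gene of the 12 pathway lists and for the 6 members (rows), with a black bar at each list's median and a dashed line at the median of all genes. The members have a median of 0.96 and the lists medians between −0.17 and 0.56.

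The genes that control p27Kip1, including the Skp2 ubiquitin ligase that marks it for degradation, had a median of 0.36 over 16 genes and 10 of them were above the control on all 4 arrays. Cks2 (0.87 ± 0.27) and Cks1b (0.76 ± 0.25), small proteins of the family through which Skp2 recognises p27, were largest, with limma adjusted p of 0.308 and 0.326. Foxo3, a factor known to activate Cdkn1b, was at −1.28, −1.65, −1.91 and −1.44, against −2.31 in the control (0.74 ± 0.31, adjusted p = 0.395). The imprinted domain around Cdkn1c had a median of 0.01 over 12 genes. Its neighbour Slc22a18 had −1.08 ± 0.27 and Phlda2, another maternally expressed gene, 0.82 ± 0.34 (adjusted p = 0.265 and 0.392). The noncoding Kcnq1ot1, whose paternal transcription silences Cdkn1c in cis, was at 1.43, 1.62, 1.83 and 1.41, against 1.30.

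Genes of transforming growth factor beta signalling, the known inducer of Cdkn2b, had a median of 0.37 over 12 genes, 8 higher and 4 lower, with 6 above the control and 3 below it on all 4 arrays. The ligand Tgfb2 varied most, at −3.12 and 0.14 in the hairpins, −0.50 in Apc and −3.20 in Pik3ca, against −4.97 in the control (3.30 ± 1.53, limma adjusted p = 0.437). Tgfb1 had 0.84 ± 0.27 and the signal transducer Smad3 0.75 ± 0.26. The 3 genes below the control on all 4 arrays were the receptors Tgfbr1 (−0.32 ± 0.23) and Tgfbr2 (−0.38 ± 0.22) and the signal transducer Smad2 (−0.19 ± 0.21). Genes often used as senescence markers had a median of 0.56 over 14 tested, 11 higher and 3 lower, and none passed. Of these, 3 were at least 2-fold higher and 2 at least 2-fold lower. The cytokine genes Il1a and Cxcl2 were well above background on the 4 tumour-derived arrays and not in the control, which put them at least 10.3-fold and 3.60-fold higher (limma adjusted p = 0.162 and 0.14). Igfbp7, the remaining gene on the higher side, varied widely between the tumour-derived arrays (1.96 ± 3.76). Gdf15, which is also a p53 target, had −3.03 ± 0.83 and Igfbp5 −1.44 ± 0.40, while Igfbp3 had 0.96 ± 0.75. Il6, Il1b and Mmp3 were not well above background on any array.

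The patterns most like those of the members were sought by the root mean square difference between levels over the 5 arrays after subtracting each gene's mean, for members whose levels spanned at least 2 log2 units. Only Cdkn2a and Cdkn1c did. The search took in 15227 genes well above background on at least 4 of the 5 arrays. Clone-type names, such as those with Rik or Gm, were skipped in the ranking, so nearer genes may be among them. Nearest to Cdkn2a were the homeobox gene Rhox10 (0.33 log2 units), the chemokine gene Cxcl2 (0.37), the niacin receptor gene Hcar2 (0.45), the cytokine gene Tnf (0.45) and the small GTPase gene Rrad (0.45). Of these, Tnf alone was well above background on all 5 arrays. It was at −0.52, 0.37, −0.60 and −0.75 on the tumour-derived arrays in the order used above, against −3.42 in the control. The other 4 were not well above background in the control, so their distances and ranks rest in part on dim control signals. Nearest to Cdkn1c were Chil5 (0.16), Bcl2l15 (0.22), Adam32 (0.23), Retn (0.24) and Oog2 (0.24), all well above background on each array. Chil5, a chitinase-like gene, was at −1.83, −2.56, −1.39 and −1.14, against −3.55 in the control. With 5 arrays many genes can share an order, so likeness here is a description.

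**Figure D5:**
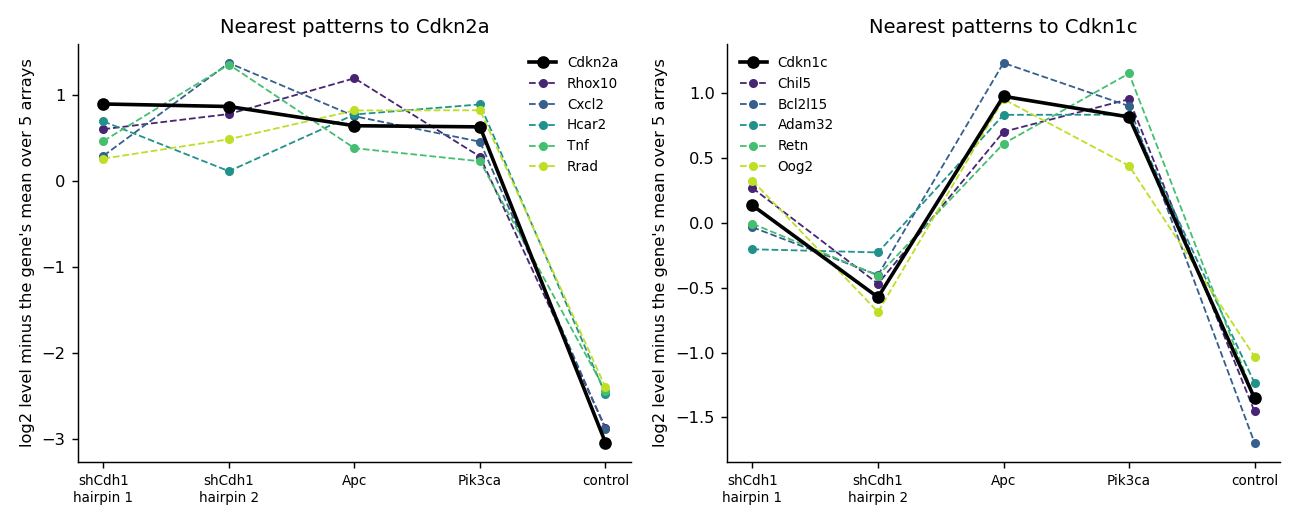
Log2 level minus the gene's own mean over the 5 arrays (y axis) for Cdkn2a and Cdkn1c (black) and the 5 genes with the nearest pattern to each (dashed) among those searched, clone-type names skipped, by array (x axis). Cdkn2a and its 5 genes are higher on each tumour-derived array than in the control, where 4 of the 5 are not well above background, and the Cdkn1c set is highest in Apc and Pik3ca.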

How the data were processed

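Scanner images were read with Agilent Feature Extraction 11.0.1.1, per the submitters' processing notes. Per the file headers, the deposited processed signal is an intensity that was background-subtracted and spatially detrended, with no scaling between arrays. A table of values deposited by the authors holds log2 values whose differences between arrays followed the scanner values with a slope of 1 over 53335 probes. Which baseline was taken from each probe is unknown. The column medians were 0.07 and 0.03 for the hairpins, −0.08 for Apc, 0.02 for Pik3ca and −0.06 for the control.

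Log2 processed signals were reduced by each array's 75th percentile over 59305 non-control spots. Outlier spots (78 to 114 per array) were left out, repeated spots were averaged, and 32 of 56605 probes lacked a usable value. Probes were named through a RefSeq table (GRCm38.p6, for names), in which 34549 matched 1 gene. The file headers name another build for the array design, so probes and gene bodies are given no coordinates. Those of promoter windows are from the RefSeq promoter table. The probe with the highest mean stood for a gene, and genes with a probe well above background on any array were tested.

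Fits used limma 3.58.1 in R 4.3.3 (two-sided, Benjamini-Hochberg over all genes tested, threshold 0.05), with 3 residual degrees of freedom against the lone control, which is assumed to vary like the tumours, and 2 between tumour genotypes. Errors after ± are standard errors of the fit unless marked SD. On simulated data 37% of genes changed by 2 log2 units and 82% of those changed by 4 were recovered against the control among 17583 genes. The simulation drew normal noise and let the control vary like the tumours. Between tumour genotypes it recovered 86% of genes changed by 4, whereas Cdh1, at −4.37 on the real arrays, did not pass. The simulated rates therefore need not hold for these arrays. The members and gene lists were chosen with earlier results of these data known. Genes named from a list are Trp53, past the threshold, and some of up to 4 with the largest differences in either contrast. The latter were taken among genes detected on each array of that contrast. Others were chosen after their values were seen, for their known role, direction or lack of signal. They are Npm1, Cbx7, Ezh2, Suz12, Ring1, Kcnq1ot1, Tgfbr1, Tgfbr2, Smad2, Cxcl2, Igfbp7, Ifne, Ifnb1, Dmrta1, Il6, Il1b and Mmp3. The number of arrays limits the precision.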

Additional observations from a re-analysis of the deposited data

Results flagged for a closer look

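Among 55 sets of 4 tumour-derived arrays examined, 4 held an array far from the other 3, where chance gives about 1 in 20. Cdkn2c in Apc, at 0.15, stood below the 0.98 to 1.02 of the other 3 arrays. E2f6 in shCdh1 hairpin 2 was at 1.13, above 0.79 to 0.84, and Rbl2 in the same array at −2.55, above −2.76 to −2.74. Tfdp2 in Pik3ca was at −0.63, below 0.46 to 0.68. Rbl1, which encodes the pocket protein p107, lay above the control in both shCdh1 arrays (mean difference 0.32) and below it in Apc and Pik3ca (−0.16), a gap of 0.47 that did not pass in limma.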

How the results depend on the processing

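All 6 members had a mean above the control under the main setting and each of 13 alternatives, and the same count of 3 was at least 2-fold higher in each. Only 10 of these alternatives could change the member levels. The rest alter the filter or dim signals alone, and every member probe was well above background on all 5 arrays. The Cdkn2a difference lay between 3.65 (median centring) and 4.01 (mean over its probes). The median member difference of 0.96 was 0.84 to 1.11 without single tumour-derived arrays, the highest without Apc. Of all genes, 21 passed against the control, 48 with normexp, 7 when a gene had to exceed background on every array, 5 when dim signals were set to a floor and 0 with slide as a block (1821 at an unadjusted p under 0.05). Leaving out 1 array gave 0 to 26, with 0 without hairpin 1, hairpin 2 or Pik3ca (2206, 2020 and 1839 unadjusted), where fewer samples enter. Of the list genes, Trp53 was the 1 that passed. With the mean over all probes 2 passed, with Cdkn1a added, a call that rests on its second probe, not well above background on any tumour-derived array, and 0 passed with the floor, with slide as a block, or without hairpin 1, hairpin 2 or Pik3ca (range 0 to 1). The cause was not tested. Median centring put the median of all genes at −0.08, in place of 0.06.

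Between tumour genotypes 0 genes passed under each of 14 alternatives, and member adjusted p lay between 0.842 and 0.999. Cdkn1c stayed lower with the Cdh1 hairpins, from −1.47 to −0.76. The Cdkn2b difference of 0.03 turned to −0.060 with normexp, −0.039 with quantile normalization and −0.30 without Pik3ca, where the rest of the left-out range reached 0.36. The Cdkn2d difference of 0.28 turned to −0.08 without hairpin 2 and −0.26 without Apc, against up to 0.82. No pairing between samples is given in the sources used here, and the Apc, Pik3ca and control groups hold 1 array each, so no paired analysis was run. Each contrast with the control rests on 1 control array.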
